A study of Mus musculus with 12 samples.

Results

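The immediate early genes described here are 10 genes, Ier3, Ier2, Fos, Fosb, Fosl1, Jun, Junb, Egr1, Btg2 and Phlda1, matched by symbol among 54393 genes of the deposited expression table, of which 21541 carry a test and all 10 are among these. They were chosen by name, with their expression after Sap30bp knockdown known, so the knockdown values below are a description and carry no test. RNA came from 12 polyA libraries of N2a Flp-In rtTA cells, a mouse neuroblastoma line, in 6 groups of 2 biological replicates. Every group, controls included, carried a FLAG-Sap30bp cDNA that doxycycline induces and that the siRNA does not target. In the mEx3 line this cDNA was without exon 3 of Sap30bp, and in the pEx3 line exon 3 was present. The control groups received a pool of non-targeting siRNAs, the knockdown groups an siRNA against Sap30bp, and the rescue groups that siRNA with doxycycline. Medium was changed at 24 h after transfection, with doxycycline only for rescue, and cells were harvested at 72 h. Since no control cells were given doxycycline, the drug and the induced isoform cannot be told apart, nor can isoform and line. The labels do not say whether a line is a clone.

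Immediate early genes are transcribed within minutes of a growth factor, stress or depolarisation signal, from transcription factors already present in the cell, and without new protein synthesis. The ERK kinase cascade, serum response factor with its ternary complex partners, CREB and NF-kB act on their promoters, and many of their mRNAs hold AU-rich elements that mark them for fast decay. FOS and JUN family proteins pair through leucine zippers to form the AP-1 factor, EGR1 is a zinc finger factor, and neuronal cells use these genes as markers of recent activity. Ier3 encodes a short-lived stress-inducible protein that acts on ERK and NF-kB signalling, Phlda1 a pleckstrin homology-like protein, and Btg2 an antiproliferative protein that recruits the CCR4-NOT deadenylase. SAP30BP, whose mRNA was targeted, is a nuclear protein with a role in how short introns are spliced.

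The genes differ in structure. In the GENCODE M21 annotation of GRCm38, Jun, Junb and Ier2 have no intron, and Ier3, Phlda1, Btg2 and Egr1 have 1. Thus 7 of the 10 genes have at most 1 intron, a share to be read beside 16.9% of 21775 protein-coding genes, for which the median was 6 introns. Fos, Fosb and Fosl1, the FOS family members, have 3 introns each. The intron of Ier3, at 109 nt, is the shortest among the 10 genes.

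Promoter sequence is shown for the members whose window held a motif known for this gene class. RefSeq windows on GRCm38.p6 matched 6 of the 10 genes (Ier3, Btg2, Fos, Fosb, Junb and Jun). In each, the 250 bases before the start were searched on both strands for the kappa B motif, the CArG box of serum response factor, the cAMP response element TGACGTCA and its 5-base part TGACG (which lies inside it), the AP-1 motif TGANTCA, and TATAAA. The lines give 60 bases, 5′ to 3′ on the gene's strand, with the kappa B motif (Ier3), TGACGTCA (Btg2) or TGACG (Fos, Fosb, Junb) in capitals.
Ier3, chr17:35821596-35821655, plus strand: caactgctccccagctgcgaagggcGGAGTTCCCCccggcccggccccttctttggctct
Btg2, chr1:134079288-134079347, minus strand: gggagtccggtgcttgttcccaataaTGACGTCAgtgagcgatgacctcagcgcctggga
Fos, chr12:85473796-85473855, plus strand: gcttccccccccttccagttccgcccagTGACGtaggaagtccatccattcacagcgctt
Fosb, chr7:19310074-19310133, minus strand: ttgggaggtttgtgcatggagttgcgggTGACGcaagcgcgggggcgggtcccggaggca
Junb, chr8:84978823-84978882, minus strand: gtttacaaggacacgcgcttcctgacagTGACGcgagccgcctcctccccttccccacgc

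Ier3 held a kappa B motif, on the opposite strand, with its first base at -92 from the start and none of the other motifs. The kappa B motif was also in Fosb (-188) and Fos (-214), thus in 3 of the 6 windows, where 7.25% of 32851 RefSeq windows have it. TGACG was in Fos (-129 and -66), Fosb (-60), Junb (-106) and Btg2 (-166), 4 of the 6, beside 17.8% of all windows. Its full palindrome TGACGTCA was in Btg2 alone of the 6, and 1.55% of all windows hold it. TATAAA was in Fos (-33), as in 12.4% of all windows. In none of the 6 did the CArG box or TGANTCA occur (1.47% and 6.75% of all windows), and the Jun window had no match to any motif. These are matches of letters within 250 bases, and binding was not measured. Sequence further from the start was not searched, so a motif absent here, such as the CArG box, may lie outside the window.

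The 3′ untranslated regions were searched for AU-rich elements, as the pentamer ATTTA and the longer TTATTTATT, which contains it. The longer element was in Fos and Phlda1, 2 of the 10 genes, where 7.59% of 20935 genes with such a region have it. ATTTA occurred 5 times in the 613 nt of Ier3, 8.16 per kb and the densest of the 10, where the median over genes was 1.22 per kb. In Fos and Phlda1 it occurred 4 and 3 times, in Btg2 5 times over 2199 nt, in Jun 4 times, in Junb and Egr1 2 times each, in Fosb and Fosl1 once each. Ier2 had none. The lines show the elements (TTATTTATT for Fos and Phlda1, ATTTA for Ier3, in capitals) on GRCm38.
Ier3, chr17:35822487-35822515, plus strand: attaatATTTAtgtATTTAtgtatatcct
Fos, chr12:85477103-85477131, plus strand: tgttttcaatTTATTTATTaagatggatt
Phlda1, chr10:111508348-111508376, plus strand: tggattatgaTTATTTATTagttttttta

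The targeted gene was checked before the members. The authors' RPKM of Sap30bp (reads scaled by gene length and library size, with replicates combined to 1 value a group) was 40.0, 21.7 and 196.5 in control, knockdown and rescue of the mEx3 line, and 33.6, 18.6 and 141.3 in the pEx3 line. Its log2 fold change after knockdown was -0.63 (FDR 0.0674) and -0.60 (FDR 0.0684) in the authors' deposited table, short of an FDR of 0.05 in either line. The knockdown groups held 54.2% and 55.4% of the control RPKM of Sap30bp, log2 ratios of -0.88 and -0.85 that are larger than the fold changes of the same table. The rescue groups were above control, with log2 ratios of RPKM of 2.30 in the mEx3 and 2.07 in the pEx3 line. The authors' deposited table gives smaller log2 fold changes for rescue against control, 1.42 and 1.02, so the size of the induction is uncertain. The neuroblastoma identity was checked on 16 neuronal markers, of which Gap43 and Hand2 were at 36.0 to 169.4 and 82.6 to 174.2 RPKM over the groups. Phox2a, a homeobox factor of autonomic neurons, was higher after knockdown in both lines, at 49.0 and 107.7 RPKM in control and knockdown of the mEx3 line and at 36.0 and 116.6 in the pEx3 line (FDR 0.0175 and 9.93e-05 in the authors' deposited table). Gap43 and Hand2 passed in the pEx3 line, and Isl1 (2.27 to 5.96 RPKM in controls and knockdowns) in neither. Of the 14 neuronal markers tested, 1 and 3 were thus called higher, beside 1.12% and 1.48% of all tested genes. The summed summed RPKM of the 16 was 1104.1 to 1635.8, against 9.09 to 11.7 for 10 glial and immune markers and 1.54 to 2.81 for 4 endothelial markers. From 1 to 2 glial and immune markers and 0 to 1 endothelial markers were at 0 in a group. Mbp, a myelin gene, and Pecam1, an endothelial adhesion gene, were at 3 and 2.8 and at 1.3 and 1 RPKM in control and knockdown of the mEx3 line, and neither was called in either line. The 10 fibroblast markers summed to 178.2, 93.4 and 132.0 RPKM in control, knockdown and rescue of the mEx3 line and to 177.3, 90.6 and 80.7 in the pEx3 line, mostly through Fbln1, with 1 to 2 of them at 0. Fbln1 had lower values in knockdown than in control in both lines, and was called in the pEx3 line only (FDR 0.055 in the mEx3 and 0.00524 in the pEx3 line, in the authors' deposited table). S100a4 (19.4 and 13.4 RPKM in control and knockdown of the mEx3 line) and Pdgfra (1.74 and 0.96) were not called. The part of neuronal and fibroblast-type expression in the results below was not tested. In bulk RNA, fewer cells of a type and less RNA per cell cannot be told apart.

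Levels in unstimulated culture spanned a wide range. In control cells of the mEx3 line, Ier3 (48.1 RPKM) and Egr1 (46.7) stood highest, then Ier2 (27.1), Jun (22.6), Phlda1 (16), Junb (15.6) and Btg2 (10.1). Fos (1.59), Fosb (0.99) and Fosl1 (0.07) stood far below their JUN partners on this per-length scale. In control cells of the pEx3 line Phlda1 was highest at 44.4 RPKM, before Ier3 (41.0), Egr1 (25.7), Ier2 (25.3), Jun (21.5), Junb (11.7) and Btg2 (8.48), with Fos at 1.51, Fosb at 0.99 and Fosl1 at 0.03. The order of neighbours cannot be tested, as the table holds no value per replicate and the number of reads behind a value is unknown.

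**Figure D1:**
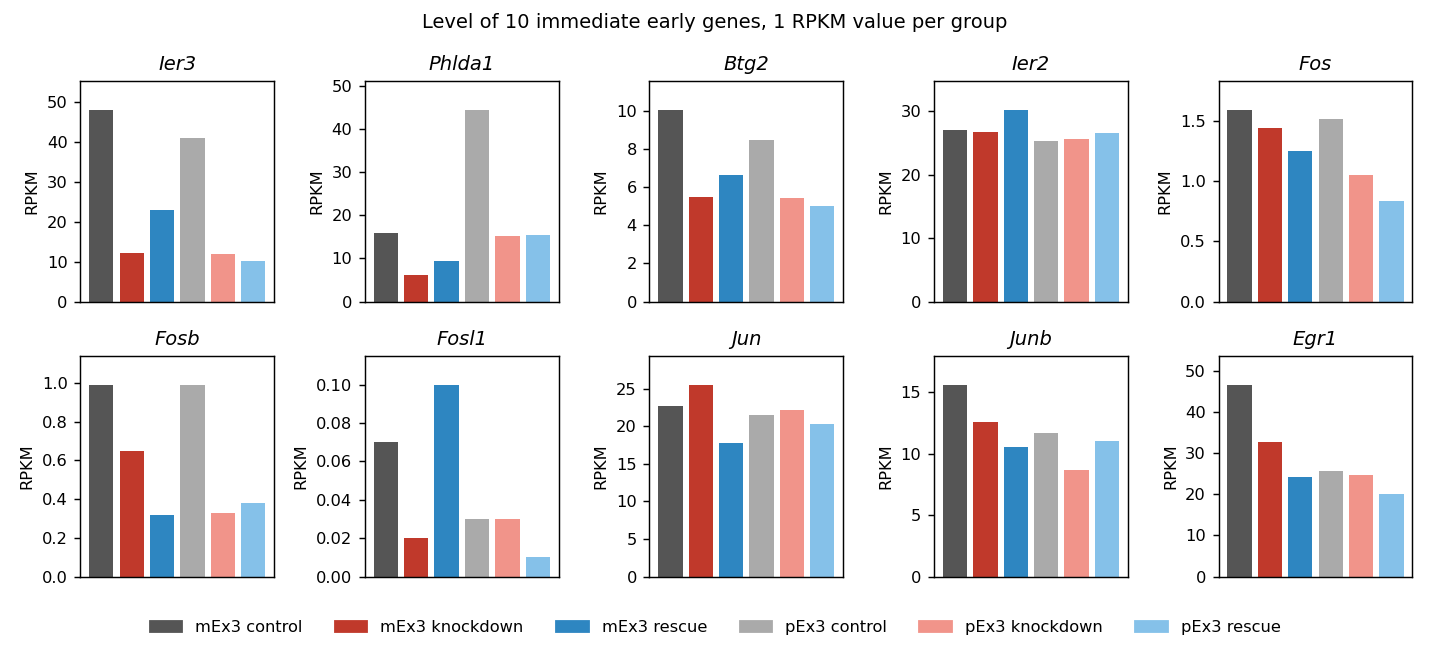
Authors' RPKM (vertical axes, linear, each from 0 with its own scale) of 10 immediate early genes in the 6 groups, 1 bar a group with replicates combined and so no error bar. Ier3, Phlda1 and Btg2 are lower in knockdown than in control in both lines, while Ier2 stays between 25.3 and 30.2 RPKM.

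Knockdown against control asked what the loss of Sap30bp does in each line. Ier3 and Phlda1 were lower in knockdown in both lines by the authors' FDR, Fosb in the pEx3 line, and Ier2 and Jun were near their control levels. Ier3 went from 48.1 to 12.1 RPKM in the mEx3 line and from 41.0 to 12.0 in the pEx3 line, which left 25.2% and 29.3% of control. These are log2 fold changes of -1.98 (FDR 5.34e-13) and -1.80 (FDR 6.44e-11) in the authors' deposited table. The knockdown groups of both lines thus ended at nearly the same Ier3 level.

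Phlda1 went from 16 to 6.15 RPKM and from 44.4 to 15.2, or 38.4% and 34.3% of control. In the authors' deposited table its log2 fold changes were -1.38 (FDR 4.94e-06) and -1.59 (FDR 1.27e-08). The share that was left was close in both lines although the control levels were not. Btg2 was at 10.1 and 5.49 RPKM in control and knockdown of the mEx3 line and at 8.48 and 5.45 in the pEx3 line, with log2 fold changes of -0.88 (FDR 0.122) and -0.64 (FDR 0.344) in the authors' deposited table, which miss the threshold in both lines.

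Among the FOS family, Fosb was at 0.99 RPKM in both controls, at 0.65 in knockdown of the mEx3 line and at 0.33 in knockdown of the pEx3 line. The authors' deposited table gives log2 fold changes of -0.81 (FDR 0.297) and -1.48 (FDR 0.00823). Fos was at 1.59 and 1.44 RPKM in control and knockdown of the mEx3 line and at 1.51 and 1.05 in the pEx3 line, neither of which passed. Fosl1 lay between 0.01 and 0.1 RPKM in all 6 groups, and no fold change of it is read here.

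The JUN genes and Egr1 were measured at higher levels, yet none passed. Jun was at 22.6 and 25.5 RPKM in control and knockdown of the mEx3 line and at 21.5 and 22.2 in the pEx3 line. Junb was at 15.6 and 12.6, and at 11.7 and 8.66 RPKM. Egr1 was at 46.7 and 32.7, and at 25.7 and 24.7 RPKM. Ier2, a nuclear immediate early protein, had the narrowest bounds. Its log2 fold changes of 0.04 and -0.07 in the authors' deposited table have approximate 95% intervals of -0.35 to 0.44 and -0.46 to 0.33, so a fall of the size of Ier3's lies outside them.

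These intervals use a standard error implied by the authors' p-values (the absolute log2 fold change over the normal quantile of the p-value, as a median over up to 9 comparisons). It was 0.20 for Ier2, 0.24 for Ier3 and Phlda1, 0.32 for Btg2, 0.36 for Jun, 0.38 for Fos, 0.40 for Fosb and Egr1, 0.47 for Junb and 1.51 for Fosl1. For Jun, Junb and Egr1 it was above that of 92.8%, 94.1% and 95.4% of genes within 1.2-fold of their mean RPKM, whose medians were 0.22, 0.24 and 0.22. For Ier3 and Phlda1 it was above 65.3% and 64.1% of such genes. The intervals of Jun, Junb and Egr1 are wide as a result: that of Egr1 for knockdown in the mEx3 line was -1.28 to 0.31, and that of Junb -1.16 to 0.68.

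**Figure D2:**
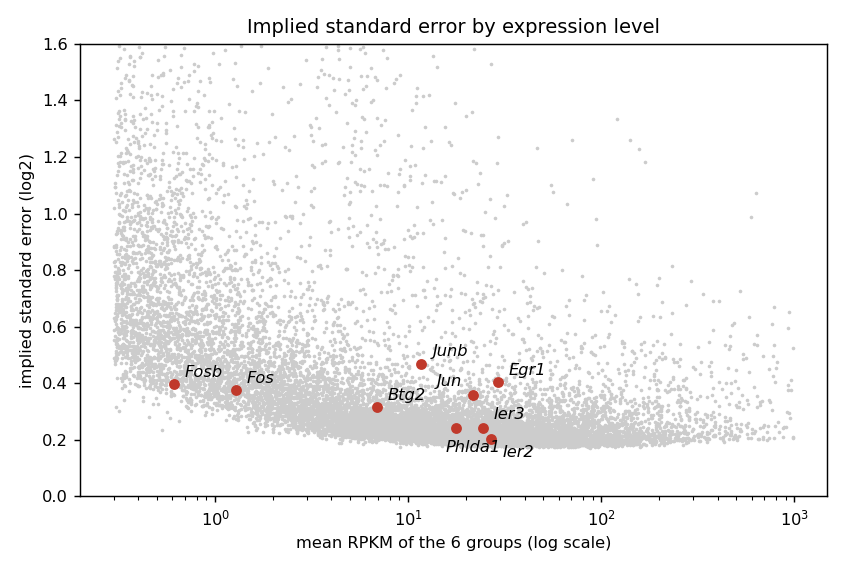
Standard error implied by the authors' p-values (vertical axis, log2 units) against the mean RPKM of the 6 groups (horizontal axis, log scale), with each gene of at least 0.3 RPKM as a grey point (values above 1.6 or 1000 RPKM are outside the axes) and the members in red. Jun, Junb and Egr1 lie above most genes of their level, and Ier2, Ier3 and Phlda1 lie within the dense band.

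By the authors' FDR under 0.05, 2 of the 10 genes (Ier3 and Phlda1) were called lower in the mEx3 line, beside 1.14% of all tested genes, and 3 (Ier3, Phlda1 and Fosb) in the pEx3 line, beside 2.2%. As the genes were chosen with this contrast in view, nothing is read from these counts. None was called higher. The median log2 fold change of the 10 was -0.65 and -0.58, in the authors' deposited table, and that of all tested genes was -0.001 and 0. The median of the 10 includes Fosl1, whose own fold changes are not read here. Like the counts, it describes genes chosen with this contrast known.

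**Figure D3:**
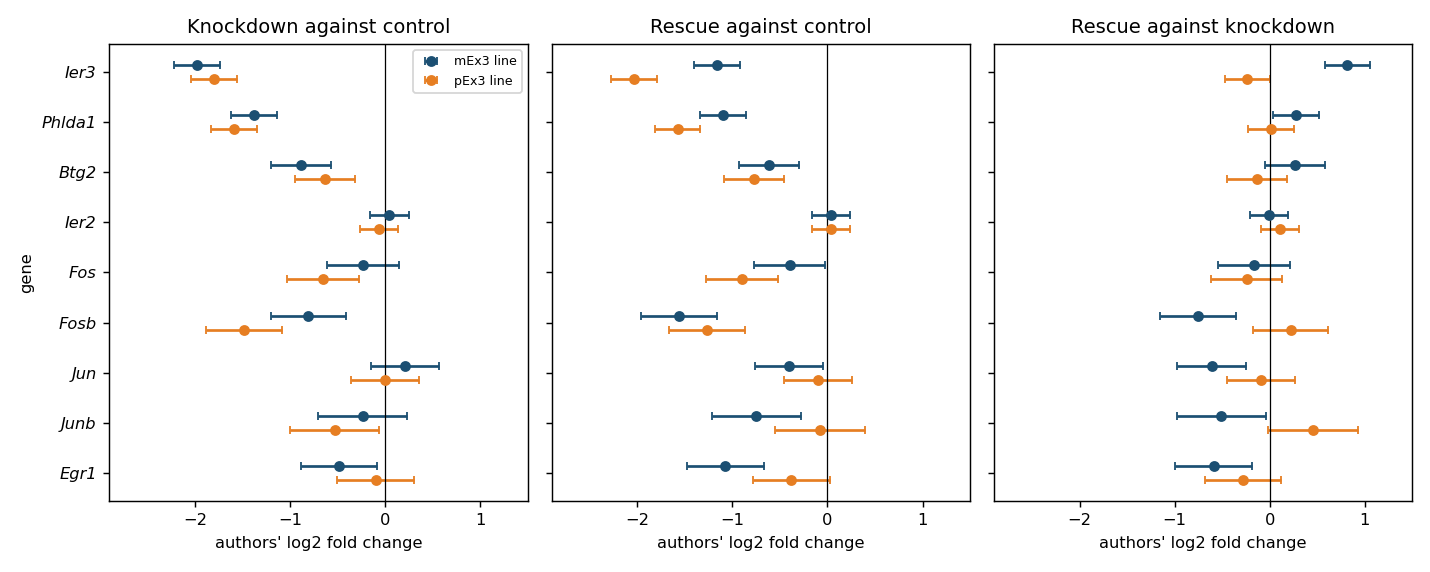
Authors' log2 fold changes (horizontal axis) of 9 immediate early genes (Fosl1 is left out for its low level) in 3 comparisons, blue for the mEx3 and orange for the pEx3 line, with bars of 1 implied standard error. In rescue against knockdown, Ier3 lies at 0.82 in the mEx3 and at -0.24 in the pEx3 line, where its bar reaches 0, as does the pEx3 bar of each other gene.

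Rescue asked whether the induced isoform brings the levels back. In the mEx3 line Ier3 was at 23.1 RPKM after rescue, above its knockdown level of 12.1 and below its control level of 48.1, or 48.0% of control. In the pEx3 line it was at 10.2 RPKM, below both knockdown (12.0) and control (41.0). Against knockdown, the authors' deposited table gives Ier3 a log2 fold change of 0.82 (unadjusted p 0.000523, FDR 0.317) in the mEx3 and of -0.24 (FDR 1) in the pEx3 line. Against control it gives -1.16 (FDR 0.00023) and -2.04 (FDR 1.1e-13) in the authors' deposited table, so Ier3 was lower than control in both.

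Phlda1 was at 9.36 RPKM after rescue in the mEx3 line, 58.5% of control, and at 15.4 in the pEx3 line, 34.8% of control. The authors' deposited table gives log2 fold changes against control of -1.10 (FDR 0.00133) and -1.58 (FDR 1.79e-08). Against knockdown these were 0.28 and 0.01 in the authors' deposited table, within about 1 implied standard error of 0. The RPKM of the mEx3 line give larger values for rescue against knockdown (a log2 ratio of 0.61) and smaller ones for rescue against control (-0.77 beside -1.10), and since the sources do not say how replicates were combined into RPKM, the size of the Phlda1 difference in rescue is uncertain. Btg2 was at 6.64 RPKM (66.0% of control) and 4.99 RPKM (58.8%), and passed the FDR against neither group.

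Fosb was lowest after rescue in the mEx3 line: 0.32 RPKM, below its knockdown value of 0.65. In the pEx3 line it was at 0.38 RPKM, beside 0.33 in knockdown. Against control, its log2 fold changes were -1.56 (FDR 0.00995) and -1.27 (FDR 0.0459) in the authors' deposited table. Fos was at 1.25 and 0.83 RPKM after rescue, its lowest value in each line, and passed in neither. Jun was at 17.7 and 20.3 RPKM, Junb at 10.6 and 11.1, and Ier2 at 30.2 and 26.6. Egr1 was at 24.2 RPKM after rescue in the mEx3 line, below knockdown (32.7) and control (46.7), with a log2 fold change of -1.08 in the authors' deposited table that did not pass (FDR 0.306), and was at 20.1 RPKM in the pEx3 line.

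Of the 10 genes, 0 were called by the authors' FDR in rescue against knockdown in either line, where 0.0232% and 0.00464% of all tested genes were called. At an unadjusted p under 0.05 there was 1, Ier3, higher in the mEx3 line, in the authors' deposited table, where 2.45% of all tested genes were higher and 3.53% lower at that p. In rescue against control, 3 of 10 (Ier3, Phlda1 and Fosb) were called lower in each line, beside 0.385% and 1.3% of all tested genes. Rescue against control and knockdown against control share the control libraries, and rescue against knockdown uses the same knockdown libraries, so these counts are not separate measurements. The median log2 fold change of the 10 in rescue against control was -0.68 and -0.84 in the authors' deposited table, beside -0.04 and -0.01 for all tested genes. Fosl1 is included in this median of the 10 too.

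The difference between the lines was tested itself, from the signed z of the authors' p-values in each line, with adjustment over 21541 genes. For knockdown, rescue against knockdown and rescue against control, 0 of the 10 genes passed an adjusted p of 0.05, where 0.00928%, 0.00928% and 0.0186% of all genes did. The genes were chosen with their knockdown values known, and the rescue comparisons share control or knockdown libraries with these. The lack of calls therefore does not show that the lines respond alike. Ier3 had the smallest p of the 10 in rescue against knockdown: the pEx3 minus mEx3 difference was -1.05 on the log2 scale (implied standard error 0.34), with an unadjusted p of 0.0017 by this z test on the authors' p-values and an adjusted p of 1. In rescue against control its difference was -0.88 (unadjusted p 0.0166 by the same test, adjusted p of 1). No other member had an unadjusted p under 0.05 in any of the 3. For knockdown, the difference of Ier3 was 0.18 (implied standard error 0.34).

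The lines were also compared directly at each state. Phlda1 was higher in the pEx3 line in controls (44.4 against 16 RPKM), knockdowns (15.2 against 6.15) and rescues (15.4 against 9.36). The authors' deposited table gives log2 fold changes of 1.30 (FDR 5.77e-06), 1.09 (FDR 0.000866) and 0.82 (FDR 0.0256). Ier3 was at 10.2 RPKM in rescue of the pEx3 line against 23.1 in the mEx3 line, with a log2 fold change of -1.11 (FDR 0.000355) in the authors' deposited table. Its controls (41.0 against 48.1 RPKM, -0.24, FDR 0.865) and knockdowns (12.0 against 12.1, -0.06, FDR 1) did not pass there. Phlda1 was thus the 1 of 10 called among controls (3.73% of all tested genes) and among knockdowns (2.9%), and Phlda1 and Ier3 the 2 called among rescues (3.29%). Egr1 was at 46.7 and 25.7 RPKM in the controls of the lines, a log2 fold change of -0.92 that did not pass (FDR 0.289) in the authors' deposited table.

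Over the 6 groups, the pattern of log2(RPKM + 1) of Ier3 was most like that of Btg2 among the members (Pearson's r of 0.99 over 6 groups). Fos and Fosb followed (0.77 each), then Junb (0.60), Egr1 (0.58), and Phlda1 and Fosl1 (0.54 each), while Ier2 (0.06) and Jun (-0.12) showed no such likeness. Among 962 other genes with at least 5 RPKM in both controls and a range of at least 1 on that scale, the closest were Slc8b1 (r of 0.998), Galns (0.988), Arsa (0.987), Gm3716 (0.987) and Paqr7 (0.983). Slc8b1, for example, was at 16.9, 7.99 and 11.5 RPKM in control, knockdown and rescue of the mEx3 line and at 14.7, 8.14 and 7.57 in the pEx3 line. The genes were picked for this likeness, so what their patterns share with Ier3 follows from the choice. The 6 points share their libraries between genes, and these coefficients describe the pattern only.

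**Figure D4:**
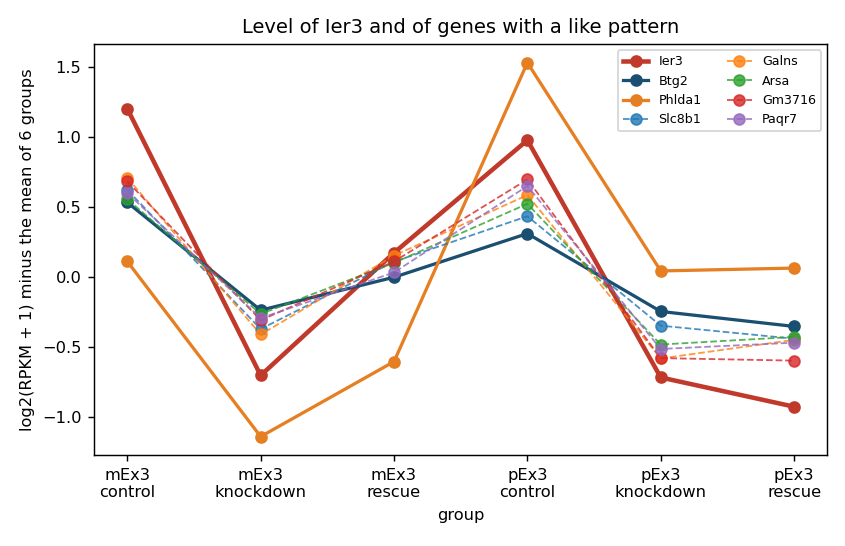
Level of each gene as log2(RPKM + 1) minus its mean over the 6 groups (vertical axis) by group (horizontal axis), with Ier3, Btg2 and Phlda1 as solid lines and the 5 genes closest to Ier3 as dashed lines. Ier3 and the dashed genes rise from knockdown to rescue in the mEx3 line, and Phlda1 differs by its high level in the pEx3 line.

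Splicing was measured per library as percent spliced in, and was not used to choose the genes. For an intron this is the percent of transcripts that retain it. The inclusion table holds 20 events in the 10 genes, 12 of them introns, of 401633 entries. Of these, 11 have no value in any library (all events of Fosb and Fosl1) and 3 have values in all 12 libraries. Jun, Junb and Ier2 have no event. Tested were events measured in each of the 12 libraries with a mean from 2% to 98%, which the introns of Ier3 and Phlda1 passed. In the authors' own table of 2175 differential splicing events, 0 are in these genes.

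The 109-nt intron of Ier3 (mm9, chr17:35958874-35958982) lies between its 2 exons. Its retention was 4.41% and 3.38% in the control libraries of the mEx3 line, 4.12% and 5.16% in knockdown, and 2.30% and 3.61% in rescue. In the pEx3 line it was 1.52% and 3.86% in control, 2.29% and 4.69% in knockdown, and 4.52% and 5.13% in rescue. Control and knockdown overlapped in both lines, and no library passed 5.16%.

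The difference of knockdown from control over both lines was 0.77 points (SE 1.07, 95% interval -1.57 to 3.12), with an adjusted p of 0.759 by limma. For comparison, 2.33% of 2106 tested introns of at least 100 and under 200 nt were called as retained more after knockdown, with a median difference of 1.93 points and quartiles of 0.46 and 4.53. Of these introns, 70.1% had a larger difference than Ier3. Among the 1679 of them under 10% in control, as Ier3 is, 0.596% were called and the median difference was 1.70 points. Retention stayed between 1.52% and 5.16% over all 12 libraries, while the level of Ier3 RNA is known per group only. Whether retention has a part in the lower Ier3 level after knockdown was not tested. In rescue against knockdown the difference was -1.69 points (SE 1.51) in the mEx3 and 1.33 points (SE 1.51) in the pEx3 line, neither past an adjusted p of 0.05 by limma (0.832 and 0.939).

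The 411-nt intron of Phlda1 (mm9, chr10:110944705-110945115) was retained at 3.62% and 3.94% in control, 2.30% and 4.83% in knockdown, and 6.25% and 0.81% in rescue of the mEx3 line. In the pEx3 line it was at 3.15% and 3.22% in control, 5.00% and 3.64% in knockdown, and 3.12% and 0% in rescue. Both knockdown libraries of the pEx3 line were above its controls, those of the mEx3 line lay on either side of theirs, and the replicates of rescue spread more than the groups differ. Knockdown against control gave 0.46 points (SE 1.32, 95% interval -2.44 to 3.36, adjusted p of 0.896 by limma).

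The 1208-nt intron of Btg2 (mm9, chr1:135974281-135975488) was retained at 0% to 2.27%, with a median of 0.47% over 12 libraries, below the filter. That of Egr1 (678 nt) had 9 values from 2.39% to 7.78%. The 3 introns of Fos had 1 or 2 values each, between 0% and 6.25%, and its 2 internal exons were included at 100% in each of the 3 and 2 libraries with a value.

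By limma, 0 of the 2 tested events were called (adjusted p under 0.05 with at least 15 points) in any of 9 contrasts, and 0 had an unadjusted p under 0.05. Of all 28980 tested events, 1.48% were called in knockdown against control as the mean of both lines, 0.0207% and 0.338% in the mEx3 and pEx3 line alone. In rescue against knockdown these shares were 0.00345% and 0%, in rescue against control 0.00345% and 0%, and for the differences of knockdown and of rescue between the lines 0% and 0.00345%. The intervals of Ier3 and Phlda1 exclude a change of 15 points in knockdown against control.

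**Figure D5:**
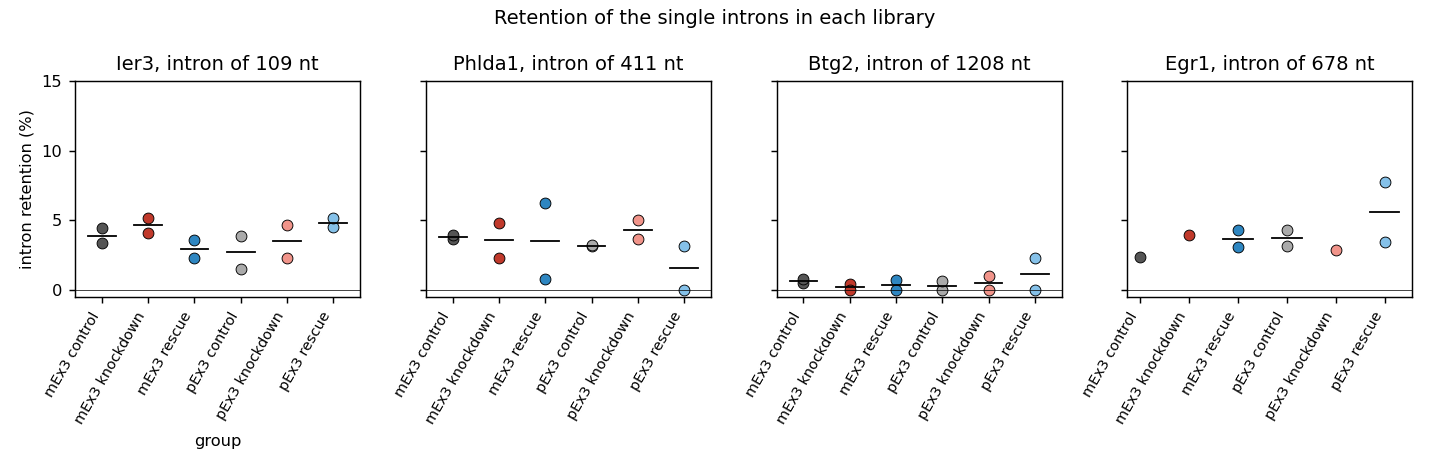
Intron retention in percent (vertical axis) in each library, by group (horizontal axis), for the only introns of Ier3, Phlda1, Btg2 and Egr1, with points for libraries and lines for means of 2 libraries. All values lie under 8%, and control and knockdown libraries overlap for Ier3 and Phlda1 in the mEx3 line.

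The other genes of the pathway were taken from 7 lists. Other immediate early genes were mixed: of 38 tested, 1 was called higher (Myc) and 1 lower (Bhlhe40) in the mEx3 line, and 3 higher (Atf3, Id2, Id3) and 1 lower (Bhlhe40) in the pEx3 line. In all tested genes 1.12% and 1.48% were called higher after knockdown in these lines, and 1.14% and 2.2% lower. The counts of the other lists are to be read beside these shares. Bhlhe40, a clock-linked repressor, went from 39.4 to 17.0 and from 18.1 to 8.25 RPKM. Atf3, a stress-induced factor of the ATF family, was at 3.78 and 7.22 RPKM in control and knockdown of the mEx3 line and at 1.81 and 7.12 in the pEx3 line. Id2 and Id3, inhibitors of helix-loop-helix factors, were at 8.3 and 20.1 and at 11.8 and 21.8 RPKM in control and knockdown of the mEx3 line, and at 3.1 and 10.7 and at 7.23 and 23.4 RPKM in the other. The median log2 ratio of the list in knockdown, as the mean of both lines from RPKM + 1, was -0.04, beside 0 for all genes.

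Of 22 ERK feedback and output genes tested, 1 was called lower in the mEx3 line (beside 1.14% of all genes) and 3 in the pEx3 line (beside 2.2%): Dusp4, a nuclear ERK phosphatase, in both, and Etv4 and Spred3 in the pEx3 line. Dusp4 went from 141.1 to 65.0 and from 157.8 to 66.7 RPKM and stayed at 73.7 and 72.5 after rescue. Spred3, an inhibitor of the cascade, was at 24.1 and 14.7 RPKM in control and knockdown of the mEx3 line and at 30.4 and 18.5 in the pEx3 line. Rasa1, a RAS GTPase-activating protein gene, was at 45.8 and 68.0 RPKM in control and knockdown of the mEx3 line, not called in either. The other 19 of the list were called in neither line, and its median log2 ratio was -0.03. Of 26 genes of the ERK cascade and of serum response factor, its partners and CREB, 1 was called: Elk3, a ternary complex factor, lower in the mEx3 line, beside 1.14% of all genes (51.3 to 27.8 RPKM, and 40.0 to 23.3 in the other line, FDR 0.0837 there in the authors' deposited table). Rps6ka5 and Crebbp, a kinase and a coactivator that act on CREB targets, were at 2.97 and 1.79 and at 5.35 and 9.28 RPKM in control and knockdown of the mEx3 line, not called in either line. Of 13 genes of AU-rich element decay 0 were called in either line by the authors' FDR. The 3 of that list with the largest ratios, Khsrp, Btg1 and Zfp36l2, were at 40.3 and 50.2, at 11.8 and 16.9 and at 30.3 and 24.4 RPKM in control and knockdown of the pEx3 line.

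Of 19 NF-kB genes 1 was called, Nfkb1, higher in the mEx3 line (10.2 to 16.3 RPKM), beside 1.12% of all genes, and the list's median log2 ratio was -0.14. Relb and Nfkb2 were at 2.71 and 1.41 and at 4.65 and 3.5 RPKM in control and knockdown of that line, neither called. Of 14 cytoskeletal targets of serum response factor, Filip1l was called higher in both lines (0.65 to 2.47 and 1.19 to 3.75 RPKM), 1 gene beside 1.12% and 1.48% of all. Acta2, smooth muscle actin, was at 1.07 and 40.9 RPKM in the controls of the lines, and was not called after knockdown. Tagln2, transgelin 2, was at 282.5 and 207.1 RPKM in control and knockdown of the mEx3 line, not called in either. Of 9 late AP-1 targets 1 was called, Procr, the protein C receptor gene, lower in both lines (35.8 to 6.88 and 69.0 to 12.6 RPKM), beside 1.14% and 2.2% of all genes. Vim, intermediate filament vimentin, was at 998.9 and 688.4 and at 974.8 and 619.6 RPKM, and Timp1, a metalloproteinase inhibitor gene, at 11.4 and 8.22 and at 7.68 and 6.67, neither called in either line.

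Of 238 tested splicing events in the genes of these 7 lists, 3 were called after knockdown (limma, mean of both lines), or 1.26%, a share close to the 1.48% of all tested events. One was a 77-nt intron of Birc2, an inhibitor of apoptosis gene, with a mean difference of 17.7 points (SE 2.28, adjusted p of 0.00447). Its retention was 3.29% ± 1.63 in control and 34.0% ± 2.83 in knockdown of the mEx3 line, and 11.8% ± 1.70 and 16.5% ± 0.28 in the pEx3 line (SD, n = 2), so most of the mean came from the mEx3 line. The others were 2 exons of Tpm1, whose inclusion differed by 22.4 and -21.9 points. As these are nearly equal and opposite, the 2 exons may reflect a single switch and are not counted as independent.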

How the data were processed

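The 12 polyA libraries were stranded, with inserts averaging 540 nt, per the labels' protocols. The authors deposited RPKM values, 1 per group, so replicates had been combined, and the sources used here do not say how. Per the submitters' processing notes, Salmon 0.14.1, edgeR and mm9 were used. The log2 fold changes, p-values and FDR are those of the authors' deposited table, and Benjamini-Hochberg values recomputed from its p-values differed by at most 0.000554. Percent spliced in per library (mm9) was deposited by the authors as a vast-tools inclusion table, and the sources used here give neither its rule for missing values nor the depth.

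Ratios were computed as log2 of RPKM + 1. The design allowed for read counts per library, which were not used here, so the authors' FDR was counted and levels were not tested. Differences between lines used signed z from the authors' p-values, which takes both contrasts as independent. Percentages were fitted with limma 3.58.1 in R 4.3.3 (6 group means, trended and robust variance), without the 37194 entries for first sites of an alternative site group. Both computations were run on simulated data with normal noise and known differences. This checks the code, not whether the assumptions hold in these data. Replicates of a group differed by a median of 2.05 to 2.69 points over events. There were 0 unused columns of per-sample values.

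The members, lists, tests and alternatives were chosen with earlier results of these data known. Beyond the members, the rule names list genes called in both lines with the same sign, the 3 of a list with the largest mean ratio at 1 RPKM or more in both controls, Sap30bp and the 5 nearest patterns. One gene under this rule is not reported here. Myc, Etv4, Hand2, Birc2 and Tpm1 were named after their values were seen. So were Id1, Jund, Vgf, Tpm2, Vcl, Nfkbia and Nfkbib, which were named for their implied standard errors. Sequences are from RefSeq (GRCm38.p6) and GENCODE M21 (GRCm38, longest coding transcript). Alternatives were the pseudocount, centring, FDR, floors on RPKM, filters, scale and variance of the splicing fit, the replicate block, and leaving out each library.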

Additional observations from a re-analysis of the deposited data

How the results depend on the processing

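With FDR recomputed over genes of at least 1 RPKM in both controls, Fosb (0.99 RPKM) is not among the genes tested, and 2 in place of 3 members were called lower in knockdown of the pEx3 line and in rescue against control of each line. Under an FDR of 0.1 these counts were the same. No called member changed direction under another pseudocount (0.1 or none), centring on genes of at least 5 RPKM, or the authors' log2 fold change. Of 90 member ratios, 48 moved by at least 0.1 with the authors' fold change, 26 without a pseudocount, 24 with 0.1 and 0 with centring. The sign differed in 8 of the 90 with the authors' fold change (Btg2, Fosb, Fosl1, Ier2 and Jun) and in 2 with centring (Fosb and Fosl1), none of them called. The median of the NF-kB list was -0.34 with a pseudocount of 0.1 and -0.24 over members of at least 1 RPKM, and that of late AP-1 targets was -0.30 over such members. In these settings low genes weigh more or are left out. No member event was called under any alternative of the splicing fit. Without each library in turn, the knockdown difference of the Ier3 intron was 0.17 to 1.37 points and of the Phlda1 intron -0.17 to 1.09. Events called in knockdown over the whole table numbered 430, but 55 with no filter on mean inclusion (more events tested) and 170 to 594 without 1 library, the lowest without control replicate 1 of either line. Same-numbered libraries of a line deviated together weakly (r of 0.149 to 0.310), and with 2 numbers this does not show pairing. With the replicate block, 0 member events were called, the adjusted p of the Ier3 intron was 0.685 by limma and 514 events were called in all. Expression holds 1 value a group, so no replicate could be left out or paired there, and unknown depth leaves the low levels of Fosl1, Fosb and Fos without a counting error.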

Other observations

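Of 14 tested cytoskeletal targets of SRF, 2 (Acta2 and Myl9) were called between the controls of the lines by the authors' FDR, beside 3.73% of all tested genes. Acta2 was at 1.07 RPKM in control cells of the mEx3 line and at 40.9 in the pEx3 line. Myl9, myosin light chain, was at 3.13 and 17.5 RPKM. Both had higher values in knockdown in each line, at 7.17 and 92.3 RPKM for Acta2 and at 14.4 and 32.4 for Myl9, and neither was called after knockdown by the authors' FDR. Their implied standard errors were 0.97 and 0.68 on the log2 scale.

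The implied errors of list genes were set against those of genes of like level. Of genes with at least 5 RPKM, 5 of 23 other immediate early genes (Id1, Id2, Id3, Jund and Vgf) exceeded 90% of genes of like level, as did 4 of 12 cytoskeletal targets of SRF (Acta2, Myl9, Tpm2 and Vcl), 2 of 8 NF-kB genes (Nfkbia and Nfkbib) and 1 of 5 late AP-1 targets (Procr). In the lists of ERK feedback (15 genes), the cascade (24) and AU-rich element decay (12) there were 0. A cut at 90% is passed by the remaining share of all genes by definition. Nothing is read from these small counts about a list.

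The 2 exons of Tpm1, a tropomyosin gene of that programme, are 76 nt each and were included in opposite directions after knockdown. The exon at mm9 chromosome 9, 66880273 to 66880348, was included at 29.8% ± 6.5 in control and 52.5% ± 8.7 in knockdown of the mEx3 line, and at 34.7% ± 1.4 and 56.7% ± 3.9 in the pEx3 line (SD, n = 2). That at 66879758 to 66879833 was included at 71.8% ± 7.7 and 50.4% ± 6.0, and at 67.5% ± 2.1 and 45.1% ± 2.6 (SD, n = 2).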
